A study of Mus musculus with 11 samples.

Results

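Described here are 9 genes of the interferon signalling pathway: the chains of the type I interferon receptor (Ifnar1 and Ifnar2), the receptor kinase Jak1, the transcription factor Stat2 and 5 interferon regulatory factors (Irf1, Irf2, Irf3, Irf7 and Irf9). They were chosen by symbol, through the Ensembl identifiers of the count table. All 9 of 9 were among the 15113 genes counted, and all 9 passed the low-count filter that left 13025 genes to test. The libraries come from C2C12, an established line of mouse muscle precursor cells able to fuse into myotubes. The cells are labelled as myotubes of an early stage, at passages 2 to 5. The control group (shRandom, n = 6) carried a random short hairpin RNA. The other group (shDRP1, n = 5) carried a hairpin against Drp1, the GTPase that divides mitochondria and is encoded by Dnm1l, and the series asks how Drp1 acts on fuel oxidation and calcium in muscle. The labels name a hairpin for each group and give neither the vector, its promoter nor whether a group descends from 1 clone or culture. Where replicates share a culture, the p-values measure technical spread between libraries.

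As background, type I interferons bind a receptor of IFNAR1 and IFNAR2, on which the kinases JAK1 and TYK2 phosphorylate STAT factors, STAT2 among them. STAT2 acts with IRF9 in the complex ISGF3, which binds the interferon-stimulated response element (ISRE) in the promoters of antiviral genes. IRF3 is made in most cells without stimulation and is switched on by phosphorylation when a cell senses foreign nucleic acid, whereas IRF7 is scarce in most cells, is itself a target of ISGF3 and amplifies the response. IRF1 activates and IRF2 mostly represses genes at shared sites, and dimers of STAT factors act through a different element, the gamma-activated site (GAS).

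Promoter stretches of the genes on which the results turn are shown because they hold, or lack, these elements. The sequences are from RefSeq on GRCm38.p6, whose table gave 11 windows for the 9 genes, each from 250 bases before to 50 after a transcription start. Printed are bases -250 to -61, 5′ to 3′ on the gene's strand, with capitals for letters that match the ISRE (GAAA, any 2 bases, GAAA, sought on both strands) or the GAS (TTCNNNGAA, which reads the same on both strands). Bst2, an antiviral membrane protein whose gene rose in shDRP1 libraries, is shown as a target for comparison and was picked after its values were seen.
Stat2, chr10:128270248-128270437, plus strand: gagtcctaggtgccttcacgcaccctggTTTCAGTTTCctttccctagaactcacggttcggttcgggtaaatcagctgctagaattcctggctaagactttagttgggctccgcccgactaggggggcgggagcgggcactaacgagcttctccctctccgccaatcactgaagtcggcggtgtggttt
Irf1, chr11:53769764-53769953, plus strand: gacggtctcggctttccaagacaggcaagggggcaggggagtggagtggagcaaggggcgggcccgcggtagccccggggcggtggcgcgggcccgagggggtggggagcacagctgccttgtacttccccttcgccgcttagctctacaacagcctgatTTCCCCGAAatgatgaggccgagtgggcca
Irf2, chr8:46739495-46739684, plus strand: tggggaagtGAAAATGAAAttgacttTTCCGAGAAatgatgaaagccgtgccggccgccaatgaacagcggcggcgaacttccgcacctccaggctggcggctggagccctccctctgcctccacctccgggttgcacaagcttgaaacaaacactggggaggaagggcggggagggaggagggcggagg
Irf7, chr7:141266485-141266674, minus strand: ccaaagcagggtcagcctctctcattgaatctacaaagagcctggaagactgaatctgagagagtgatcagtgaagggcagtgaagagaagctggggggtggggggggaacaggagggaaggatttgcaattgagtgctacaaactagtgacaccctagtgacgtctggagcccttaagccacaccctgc
Bst2, chr8:71537533-71537722, minus strand: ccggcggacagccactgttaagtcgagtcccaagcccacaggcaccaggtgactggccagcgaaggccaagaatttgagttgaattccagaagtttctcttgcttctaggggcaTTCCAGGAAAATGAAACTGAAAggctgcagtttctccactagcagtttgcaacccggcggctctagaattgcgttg
The ISRE letters occurred in 3.44% of all 32851 promoter windows of this length and in those of 2 of the 9 genes, Stat2 (bases -222 to -213) and Irf2 (bases -241 to -232). The GAS letters occurred in 8.3% of windows and in those of 4 members: Irf1 (bases -90 to -82), Irf2 (bases -224 to -216), Ifnar2 (bases -214 to -206) and Ifnar1 (bases -5 to 4). In Bst2 both motifs share letters, and in Irf2 they lie apart. Neither set of letters was in the windows of Irf3, Irf7, Irf9 and Jak1, which says only that these letters are not there. The Irf2 stretch also overlaps the annotated gene Gm16675. Irf1 had a further window, whose stretch (chr11:53770223-53770412) lies inside the gene. That window held neither set of letters and is not printed.

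Total counts ran from 12277622 to 23082617 per library and did not separate the groups (two-sided exact permutation test, p = 0.361). Dnm1l was at 78.6 ± 8.63 CPM (SD, n = 6; counts scaled to the TMM-adjusted library total) in shRandom and 18.7 ± 2.58 CPM (SD, n = 5) in shDRP1 libraries. The myotube markers set the groups apart. All 8 myotube markers tested were lower in shDRP1, and their summed level ran from 10479 to 11855 CPM in shRandom but from 141.6 to 197.1 CPM in shDRP1 libraries. Of 10 immune cell markers 5 were counted. Their sum ran from 3.77 to 4.96 CPM in shRandom and from 12.3 to 20.7 CPM in shDRP1. Lyz2 (0.590 CPM in shRandom and 10.9 CPM in shDRP1 on average) and Cd14 (1.38 and 3.24 CPM) were higher in shDRP1, Csf1r (1.33 and 0.651 CPM) was lower, and Cd68 (0.899 and 0.675 CPM) did not pass. Itgam, below the filter, had 8 counts over all shRandom libraries and 0 over all shDRP1 libraries. Of 6 endothelial markers only Tek was counted, at no more than 0.567 CPM in any library. The part of these differences in the results below was not tested, and in bulk RNA a change in the cells present and a change in RNA per cell cannot be told apart. Replicate 1 of shRandom and replicate 2 of shDRP1 had the lowest share of ribosomal RNA counts of their groups (1.47% and 1.84%). The other libraries had 2.08% to 2.85% in shRandom and 2.09% to 3.18% in shDRP1, so the shDRP1 library lay close to its neighbour. Results were repeated without both.

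Of the 9 genes, 7 differed between the groups, 5 of them higher and 2 lower in shDRP1 libraries. Across all genes 67.1% passed the same threshold (an adjusted p of 0.05, edgeR quasi-likelihood test), so a count of 7 in 9 (77.8%) lies near the background. By direction, 5 of 9 (55.6%) were higher where 33.9% of all genes were, and 2 of 9 (22.2%) lower where 33.3% were. At least 2-fold higher were 4 of 9 members, Irf7, Irf9, Stat2 and Irf1, and 11.2% of all genes. The CPM of the groups did not overlap for 6 of 9 members and for 48.9% of all genes. The median log2 fold change of shDRP1 over shRandom was 0.44 for the members and 0.03 for all tested genes.

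**Figure D1:**
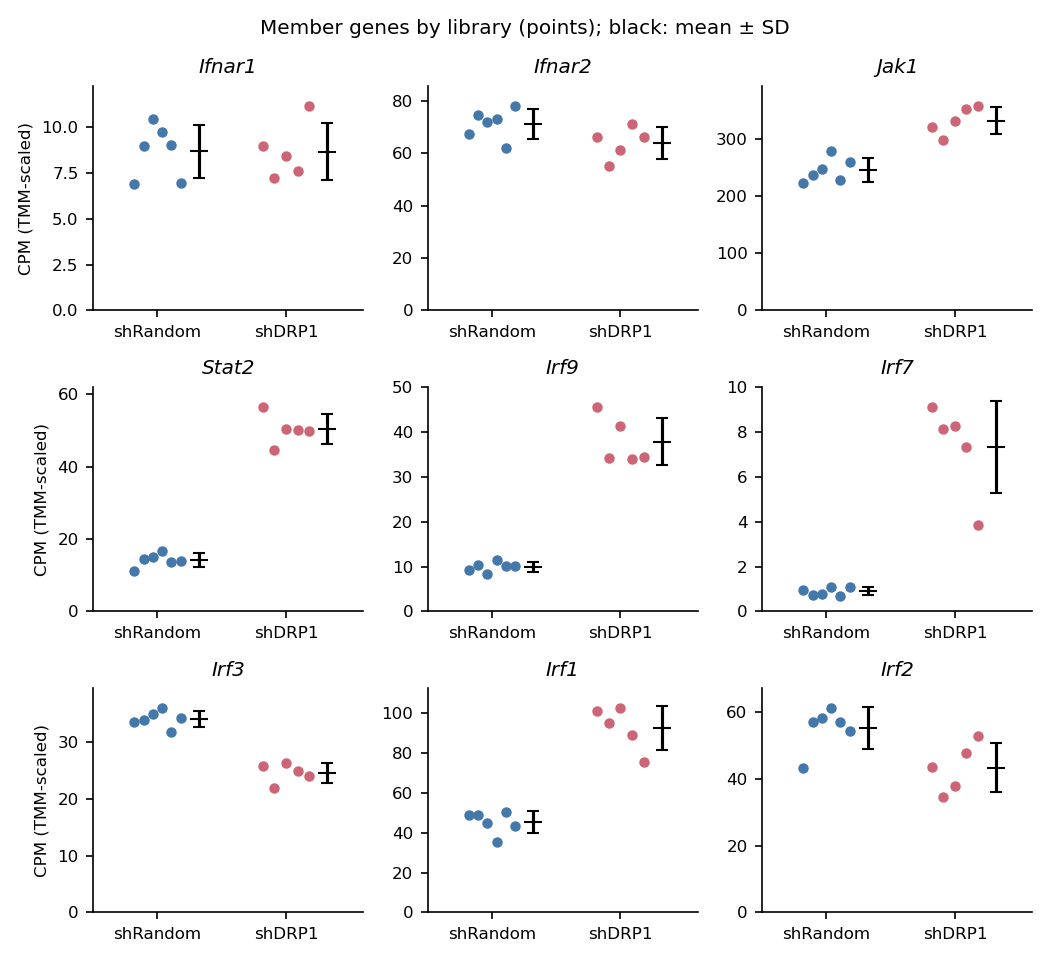
Level of each of the 9 genes in CPM (vertical axis, from 0, TMM-scaled) in the 6 shRandom (blue) and 5 shDRP1 (red) libraries, 1 point per library, with mean ± SD in black. Stat2, Irf9, Irf7, Irf1 and Jak1 are higher in each shDRP1 library than in any shRandom library, Irf3 is lower in each, and Irf2, Ifnar1 and Ifnar2 overlap.

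At the receptor, neither chain passed the test. Ifnar1 (chromosome 16, 91485238 to 91507441, plus strand) encodes the chain that binds interferon with low affinity and associates with TYK2. Its level had a low of 6.87, a median of 8.98 and a high of 10.5 CPM in shRandom, and it was 8.93, 7.19, 8.39, 7.58 and 11.1 CPM in shDRP1 replicates 1 to 5. The groups overlapped, and only shDRP1 replicate 5 lay above the shRandom range. The log2 fold change came to -0.0023 (SE 0.14, adjusted p = 0.989), with a 95% interval from -0.32 to 0.32, and its sign depended on the scaling. Ifnar2 (chromosome 16, 91372783 to 91405589, plus strand) encodes the high-affinity chain, which associates with JAK1. In shRandom its lowest, median and highest levels were 62.1, 72.6 and 77.9 CPM, and the shDRP1 libraries had 66.2, 55.1, 61.2, 71.1 and 66.2 CPM. The values of shDRP1 replicates 1, 4 and 5 lay within the shRandom range and those of replicates 2 and 3 below it. The log2 fold change came to -0.15 (SE 0.08, adjusted p = 0.0871, 95% interval -0.33 to 0.02). It passed when shRandom replicate 5 (-0.20, adjusted p = 0.0285) or shDRP1 replicate 4 (-0.19, adjusted p = 0.0457) was left out. An annotated read-through gene, Gm21970, shares the last 13869 bases of Ifnar2 on the same strand, so reads of the pair may be divided. Gm21970 was not among the genes tested, and no level is given for it.

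The kinase was higher by a modest amount. Jak1 (chromosome 4, 101152367 to 101265282, minus strand), which serves this receptor and many cytokine receptors, had a low of 222.5, a median of 242.7 and a high of 280.0 CPM in shRandom. The shDRP1 libraries had 321.1, 299.1, 332.2, 353.4 and 357.5 CPM, each above every shRandom library. Jak1 averaged 246.0 ± 21.5 CPM (SD, n = 6) in shRandom and 332.7 ± 24.0 CPM (SD, n = 5) in shDRP1, and rose by 0.44 on the log2 scale (SE 0.07, adjusted p = 7.49e-05).

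Both ISGF3 members of the set rose severalfold. Stat2 (chromosome 10, 128270559 to 128292849, plus strand) supplies the transactivation domain of the complex. In shRandom its lowest, median and highest levels were 11.2, 14.3 and 16.8 CPM, and in shDRP1 replicates 1 to 5 it was at 56.3, 44.6, 50.5, 50.2 and 49.9 CPM. Every shDRP1 library lay far above every shRandom library, and the log2 fold change came to 1.82 (SE 0.09, adjusted p = 3.27e-10), or 3.54-fold. Irf9 (chromosome 14, 55603571 to 55610030, plus strand) is the DNA-binding subunit. Its shRandom levels had a low of 8.37, a median of 10.1 and a high of 11.4 CPM, and its shDRP1 levels were 45.5, 34.3, 41.4, 33.9 and 34.4 CPM. Again the groups lay apart, with a log2 fold change of 1.93 (SE 0.10, adjusted p = 5.30e-10), or 3.81-fold. The first 123 bases of Irf9 overlap the end of Rnf31 on the same strand. Rnf31 was at 5.13 ± 0.676 CPM (SD, n = 6) and 6.82 ± 1.05 CPM (SD, n = 5).

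The ratio of Irf9 to Stat2 counts, taken within each library so that no scaling enters, had a median of 0.718 in shRandom and 0.768 in shDRP1. The groups overlapped, and the mean log2 ratio differed by 0.10 (two-sided exact permutation test over the 11 libraries, p = 0.370, adjusted p over 4 ratios = 0.370). The ratio of Ifnar2 to Ifnar1 likewise overlapped, with medians of 7.93 and 7.41, and differed by -0.15 (exact permutation test, p = 0.357, adjusted p = 0.370). A difference in either pair was not detectable with these libraries.

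Irf7 had the largest fold change of the set and Irf3 changed the other way. Irf7 (chromosome 7, 141262706 to 141266481, minus strand) had 97 counts in all shRandom libraries together and 645 in all shDRP1 libraries. Its shRandom levels had a low of 0.709, a median of 0.871 and a high of 1.11 CPM, and its shDRP1 levels were 9.11, 8.12, 8.29, 7.35 and 3.84 CPM. All shDRP1 libraries were above all shRandom libraries, although replicate 5 had less than any other shDRP1 library. The log2 fold change came to 3.03 (SE 0.23, adjusted p = 2.05e-08), or 8.16-fold, and 3.19 without that replicate. The last 45 bases of Irf7 overlap the end of Phrf1 on the opposite strand, and the strand setting of the counting is not given in the sources used here. Phrf1 fell, averaging 63.0 ± 7.41 CPM (SD, n = 6) in shRandom and 48.1 ± 7.78 CPM (SD, n = 5) in shDRP1, a log2 fold change of -0.39 (adjusted p = 0.00562, edgeR).

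Irf3 (chromosome 7, 44997648 to 45002848, plus strand) had a low of 31.7, a median of 34.1 and a high of 35.9 CPM in shRandom. In shDRP1 libraries it was at 25.8, 21.8, 26.3, 24.8 and 23.9 CPM, each below every shRandom library. Irf3 averaged 34.0 ± 1.39 CPM (SD, n = 6) in shRandom and 24.5 ± 1.77 CPM (SD, n = 5) in shDRP1, and fell by 0.47 on the log2 scale (SE 0.07, adjusted p = 2.13e-05). The ratio of Irf7 to Irf3 counts had a median of 0.0255 in shRandom (0.0213 to 0.0317) and 0.315 in shDRP1 (0.161 to 0.372), an 11.1-fold change (log2 difference 3.48). The groups did not overlap (exact two-sided permutation, p = 0.00216, the lowest value this design can give, adjusted p = 0.00433). With Irf7 higher and Irf3 lower in every shDRP1 library, this separation was fixed by those results. The test of the ratio therefore adds no support to them.

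Irf1 rose and Irf2 fell. Irf1 (chromosome 11, 53770014 to 53778374, plus strand), an activator induced by both types of interferon, had a low of 35.6, a median of 46.8 and a high of 50.4 CPM in shRandom. The shDRP1 libraries had 100.9, 95.0, 102.4, 89.1 and 75.6 CPM, with replicate 5 again lowest but above every shRandom library. The log2 fold change came to 1.03 (SE 0.10, adjusted p = 2.87e-07), or 2.05-fold. Irf2 (chromosome 8, 46739732 to 46847458, plus strand) had a low of 43.4, a median of 57.1 and a high of 61.1 CPM in shRandom, and 43.4, 34.7, 37.9, 47.8 and 53.0 CPM in shDRP1. The groups overlapped because shRandom replicate 1, the lowest of its group, lay below shDRP1 replicates 1, 4 and 5. The log2 fold change came to -0.35 (SE 0.11, adjusted p = 0.0129), and -0.35 (adjusted p = 0.00297) without shRandom replicate 1 and shDRP1 replicate 2. In edgeR it was nearer the threshold with library totals alone (-0.25, adjusted p = 0.0408) and with upper quartile scaling (-0.26, adjusted p = 0.0476). Among the 19 other tested genes within 1 Mb of Irf2, 9 were higher and 3 lower, with a median log2 fold change of 0.19. Of all genes 33.9% were higher and 33.3% lower. Around the other members such medians ran from -0.22 (Jak1) to -0.02 (Ifnar2). Whether position matters was not tested.

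The ratio of Irf1 to Irf2 counts ran from 0.582 to 1.12 in shRandom (median 0.825) and from 1.43 to 2.74 in shDRP1 (median 2.32). It was 2.62-fold higher in shDRP1 libraries, with no overlap (log2 difference 1.39, exact two-sided permutation, p = 0.00216, again the lowest possible, adjusted p = 0.00433). In shDRP1 libraries Irf1 was never below 75.6 CPM and Irf2 never above 53.0 CPM. In shRandom libraries Irf1 was never above 50.4 CPM and Irf2 never below 43.4 CPM. Those ranges fixed the separation, so the test of this ratio adds no support to the results of either gene.

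**Figure D2:**
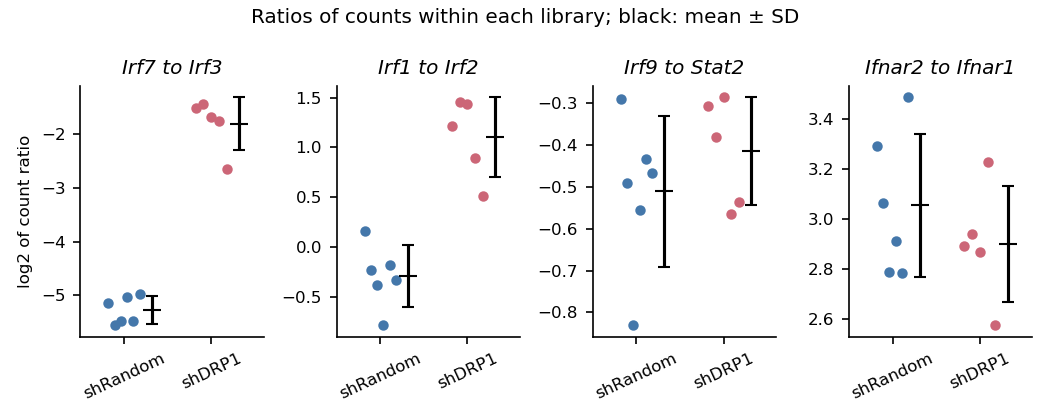
Log2 of the ratio of counts of paired genes within each library (vertical axes, each with its own range) for shRandom (blue, n = 6) and shDRP1 (red, n = 5), with mean ± SD in black. The ratios of Irf7 to Irf3 and of Irf1 to Irf2 do not overlap between groups, and those of Irf9 to Stat2 and of Ifnar2 to Ifnar1 do.

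The shDRP1 libraries did not vary alike across members. Replicate 5 was the lowest shDRP1 library for Irf7 and Irf1, but the highest for Irf2, Ifnar1 and Jak1. Replicate 2 was the lowest for 6 of the 9 genes (Stat2, Irf2, Irf3, Ifnar1, Ifnar2 and Jak1), and replicate 4 was the lowest for Irf9. Of 25 tested targets of ISGF3 and IRF factors, 15 had their lowest shDRP1 level in replicate 5 and 13 their highest in replicate 1. Among 15 tested negative regulators, 4 were lowest in replicate 5 and 3 highest in replicate 1. Such shares were not computed over all genes. A trait of a whole library therefore cannot be told apart from a trait of these genes.

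**Figure D3:**
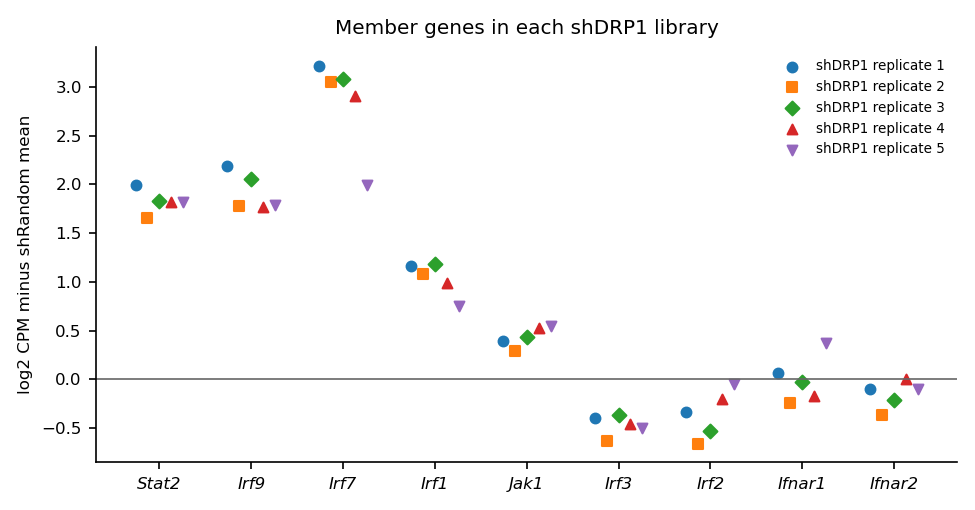
Log2 CPM (prior count of 2) of each of the 9 genes in the 5 shDRP1 libraries, minus the mean of the 6 shRandom libraries, which lies at 0. Irf7 in replicate 5 (1.99) sits below its value in the other replicates (2.91 to 3.22), and Stat2, Irf9, Irf7, Irf1 and Jak1 lie above 0 in all 5 libraries.

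Other genes of the pathway are given by list, to be read against the 33.9% of all genes that were higher and the 33.3% that were lower. Among 5 tested receptors and kinases outside the set, 3 rose and 2 fell. Ifngr2, a chain of the interferon gamma receptor, rose from 20.2 ± 3.80 to 40.8 ± 8.09 CPM (SD, n = 6 and 5, log2 fold change 1.02, adjusted p = 1.81e-05). The other chain of that receptor, Ifngr1, fell from 51.1 to 44.2 CPM (log2 fold change -0.21, adjusted p = 0.0466). Jak2 rose by 0.46 on the log2 scale (adjusted p = 5.00e-05). Tyk2, the partner of Jak1 at the type I receptor, had a log2 fold change of -0.30 (adjusted p = 0.00973, lost with library totals alone, 0.0641, and upper quartile scaling, 0.0513). Of 3 other STAT genes tested, 1 rose, 1 fell and Stat3, which serves many cytokine receptors, did not pass. Stat3 averaged 193 ± 5.72 CPM (SD, n = 6) in shRandom and 181.8 ± 8.80 CPM (SD, n = 5) in shDRP1 (log2 fold change -0.09, adjusted p = 0.151). Its sign differed with library totals alone, and DESeq2 gave an adjusted p of 0.0406. Stat5a and Stat5b, which serve growth hormone and cytokine receptors, had log2 fold changes of 0.30 (adjusted p = 0.0232) and -0.42 (adjusted p = 0.00396). The call of Stat5a was lost without shRandom replicate 2 (adjusted p = 0.0549) or shDRP1 replicate 2 (0.0645) and with the replicate number as a block (0.0674). Of 3 tested genes for IRF2-binding proteins and a relative, Irf2bpl fell by 0.57 on the log2 scale (adjusted p = 6.88e-07), Irf2bp2 was at 0.34 (adjusted p = 0.0140) and Irf2bp1 was at 33.8 and 32.8 CPM (adjusted p = 0.612), with a sign that differed between scalings. Irf5 was below the filter, and Irf4, Irf8 and all 21 interferon genes listed were not analysed here.

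Sensors and adaptors that act upstream of IRF3 and IRF7 rose in 7 of 16 cases and fell in 3, so that the share called lay near the 67.1% of all genes. The cytosolic RNA sensors Ddx58 and Ifih1 rose from 11.1 to 83.8 CPM and from 2.86 to 13.9 CPM (log2 fold changes 2.92 and 2.28, adjusted p = 1.00e-12 and 2.14e-11), and the endosomal sensor Tlr3 rose by 1.72 on the log2 scale (adjusted p = 6.34e-08). Of 15 tested negative regulators 8 rose and 5 fell, where 33.9% and 33.3% of all genes did. Usp18, which displaces JAK1 from IFNAR2 and is itself induced by interferon, rose from 11 counts in all shRandom libraries (0.0993 ± 0.0883 CPM) to 344 counts in shDRP1 libraries (3.92 ± 1.49 CPM; log2 fold change 5.18, SE 0.44, adjusted p = 8.47e-08). Socs2, an inhibitor of growth hormone signalling, fell from 223.7 to 33.0 CPM (log2 fold change -2.76, adjusted p = 1.85e-13), and the phosphatase Ptpn11 fell by 0.98 on the log2 scale (adjusted p = 3.89e-08).

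Downstream, all 25 tested genes on the list of ISGF3 and IRF targets rose. Their log2 fold changes ran from 0.80 to 8.05 with a median of 2.33, against 0.03 for all genes, of which 33.9% were higher. Of 34 genes listed, 8 were not analysed here and 1 was below the filter. The list was drawn up with earlier results on these libraries known, so its direction is not independent evidence. Ifi44 rose from 0.194 to 50.6 CPM (20 counts in all shRandom libraries), Oasl2 from 0.749 to 20.7 CPM and Eif2ak2, the kinase PKR that blocks translation, from 10.3 to 52.1 CPM (adjusted p = 2.17e-12, 3.39e-10 and 7.62e-11). Of 19 of these genes with a RefSeq promoter window (21 windows), 9 held the ISRE letters and 5 the GAS letters. Over all promoter windows the shares were 3.44% and 8.3%, counted by window and not by gene. Bst2, whose stretch is printed above, rose from 1.88 ± 0.328 to 5.53 ± 1.39 CPM (log2 fold change 1.55, adjusted p = 2.89e-06).

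**Figure D4:**
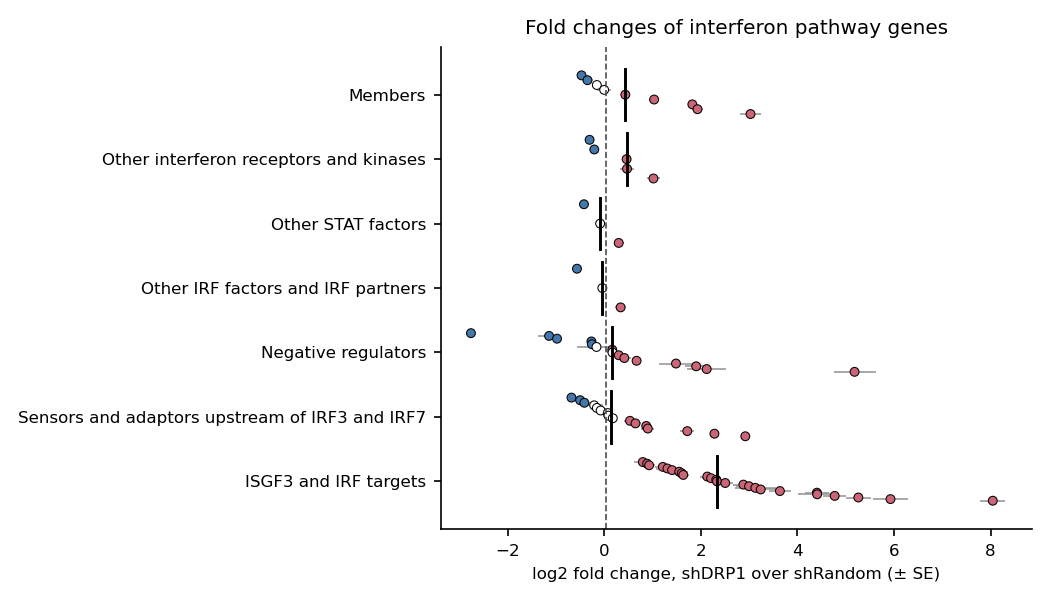
Log2 fold change of shDRP1 over shRandom (horizontal axis, bars are SE) for each tested gene of the set and of 6 other pathway lists, red where higher and blue where lower at an adjusted p of 0.05, white where not passed. Black bars are list medians and the dashed line is the median of all 13025 genes (0.03). The target list lies wholly to the right, and the other lists span both sides.

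The genes most like Stat2, the member with the smallest adjusted p, over the 11 libraries among 8322 genes with a mean of at least 10 CPM were Pik3r3 (Pearson r = 0.996), Serpinb9 (0.995) and Limd2 (0.995). With the group means removed r was 0.852, 0.849 and 0.794. The libraries share depth and scaling, and the values are descriptive. Pik3r3 rose from 29.8 ± 4.91 to 231.1 ± 30.0 CPM (log2 fold change 2.95, adjusted p = 3.34e-11).

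**Figure D5:**
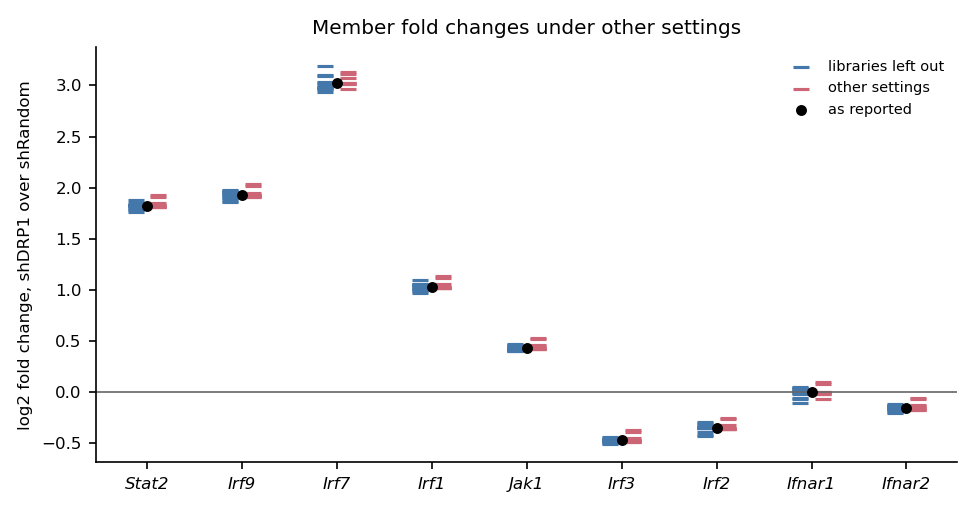
Log2 fold change of each of the 9 genes (vertical axis) as reported (black) and with libraries left out (blue marks) or other settings (red marks). Ifnar1 crosses 0, and the others stay on their side of it.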

How the data were processed

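Tags near the 3' end of messenger RNA were counted in 11 QuantSeq libraries, 6 shRandom and 5 shDRP1, grouped by their titles. Per the series text, alignment used the BlueBee software. DESeq2 version 1.22.2 and the builds GRCm38 and mm10 are listed in the submitters' processing notes. Aligner, counting program and strand setting were not given in the sources used here. Values in the deposited table are whole-number raw counts, not normalized. The authors' normalized table was not used. Symbols came from a reference table (15080 of 15113 identifiers matched), positions from GENCODE M21 and promoters from RefSeq, both on GRCm38.

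The test on counts was that of edgeR, version 4.0.16, under R 4.3.3 (filterByExpr, TMM, robust quasi-likelihood test, group as the only term, Benjamini-Hochberg over 13025 genes, threshold 0.05). CPM use TMM-scaled library sizes. Each SE is the log2 fold change over the root of F, and 95% intervals from the SE and 9 residual degrees of freedom. Count ratios were compared by two-sided exact permutation tests. The edgeR steps were run on simulated counts in which only a small share of genes changed. In these data 67.1% of genes passed, so that run does not test scaling or error control here. Within groups, chi-square over degrees of freedom between libraries was 5.03 to 57.2, so no pair repeated a library.

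The members and lists were chosen with earlier results of these data known. Named are the members, Dnm1l, of each pathway list the 3 genes with the smallest adjusted p and any at 0 counts in a whole group, and the 3 genes most like the member of smallest adjusted p. Of the cell type markers, the myotube list is given by its count and sum, and the counted immune and endothelial genes are named. Others named were chosen after their values were seen. Alternatives were other scalings, filters, a stricter threshold, DESeq2 version 1.42.0, limma-voom (limma version 3.58.1), the replicate number as a block and leaving out libraries. Some genes of the lists are not reported here.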

Additional observations from a re-analysis of the deposited data

Results flagged for a closer look

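In 70 sets of values (a gene or ratio in a group), 4 had a library further from its neighbour than Dixon's 95% limit allows, where chance flags about 1 in 20. The log2 ratio of Irf7 to Irf3 was lowest in shDRP1 replicate 5, at -2.64. Irf2 was lowest in shRandom replicate 1, at 43.4 CPM. Stat5a (13.2 CPM) and Stat5b (22.3 CPM) were highest in the same library, shRandom replicate 1.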

How the results depend on the processing

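Over 187 values of the 9 members under 21 alternatives, 176 kept their direction and side of the threshold, 1 lost its call, 2 gained one and 8 changed sign, all 8 of them Ifnar1. Ifnar1, not past the threshold, changed sign with library totals alone (0.0961) and upper quartile scaling (0.0832), and ran from -0.11 to 0.0489 with each library left out in turn. Irf2bp1 likewise changed sign with library totals alone (0.0589), upper quartile scaling (0.0447) and without shRandom replicate 1 and shDRP1 replicate 2 together (0.0111). Stat3 changed sign with library totals alone (0.0141). Those scalings moved the median log2 fold change of all genes from 0.03 to 0.13 and 0.12. Of the members, 1 instead of 2 was lower at a threshold of 0.01, where Irf2 was lost. With a filter of at least 10 CPM, which tested 8328 genes and dropped Irf7 and Ifnar1, 2900 genes were higher and 2838 lower instead of 4413 and 4332, and 4 members were higher. By the difference of medians the permutation test of the ratios of Irf7 to Irf3 (3.64) and Irf1 to Irf2 (1.49) gave an adjusted p of 0.0519. With the replicate number as a block, 3934 genes were higher and 4003 lower, 5 members were higher and 2 lower, and Stat5a was lost. Deviations of same-numbered libraries had r from -0.36 to 0.51, negative in 4 of 5 pairs. So few values, without differently numbered pairs beside them, cannot tell whether the numbers pair the samples. With each library left out in turn, 4150 to 4427 genes were higher and 4073 to 4388 lower, and 5 members were higher and 2 to 3 lower. Depth limits Irf7, with 11 to 21 counts in each shRandom library.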
